A study of Mus musculus with 10 samples.

Results

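The genes described here carry out lipid uptake, lipid breakdown, storage in droplets and lipid synthesis. They came from a list of 36 genes in 6 roles, written with earlier results of these data known, and every probe set annotated to exactly 1 of these genes was taken. That gave 76 probe sets in 35 genes, of 45037 probe sets and 18193 genes in all; Acsl1, a long-chain acyl-CoA synthetase, had no such probe set among those analysed here. Affymetrix mouse genome arrays measured RNA in a muscle of the calf, the gastrocnemius, from male Skn-1/Pou2f3-deficient mice (called knockout here, 5 arrays) and wild-type mice (5 arrays). Mice of both genotypes were 12 to 16 weeks old, ate chow, were fasted for 18 h before dissection and carried a mixed 129 x C57BL/6J background; per the labels' protocols over 10 generations of backcrossing to C57BL/6J followed for the deficient line. The labels call the arrays biological replicates and name no muscle-specific Cre, so the deficiency is not described as limited to muscle.

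Muscle takes up fatty acids that lipoprotein lipase frees from circulating lipoproteins, binds them in the cytosol, and either oxidizes them or stores them as triglyceride in droplets coated by perilipins. The stored triglyceride is cleaved stepwise by adipose triglyceride lipase, hormone-sensitive lipase and monoglyceride lipase. Synthesis of new fatty acids runs from citrate through malonyl-CoA to palmitate, which elongases and desaturases then modify, and fasting is known to favour uptake and oxidation over synthesis. Pou2f3 is a POU-domain transcription factor known for its need in taste and tuft cells.

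Values are given as deposited, on a scale read as log2, and a difference is knockout minus wild type. Most probe sets hardly varied: 86.2% of all had an SD over the 10 arrays at or below 0.01 and are called low-variation, and the other 6209 are called varying. The Pou2f3 probe set itself was low-variation, at 6.47 ± 0.00029 in knockouts and 6.47 ± 0.00024 in wild types (SD, n = 5 each; exact permutation p = 0.571, two-sided), so it does not check the genotype labels. All 10 skeletal muscle markers looked up were measured, 5 of them with varying probe sets, and Acta1, skeletal muscle actin, stood at 13.96 in both genotypes. The arrays are bulk samples, in which fewer cells of a type and less RNA per cell cannot be told apart. The adipocyte markers Adipoq, Cidec, Retn, Lep and Fabp4 (5 of 7 listed were measured, all varying) differed widely between arrays, and a score made of their mean deviation from each probe set's median ran from -0.39 to 0.73 in knockouts and from -0.82 to 0.96 in wild types (exact permutation p = 0.786, two-sided). These markers did not all run together. Lep and Fabp4 read 6.94 and 8.72 in knockout 1, beside 6.95 and 8.73 in knockout 5. Adipoq, Cidec and Retn read 9.29, 7.27 and 7.83 in knockout 1, against 10.81, 8.49 and 9.02 in knockout 5. Scores of keratinocyte and hair genes were 1.27 and 1.49 in knockouts 1 and 4, and 1.39 and 1.34 in wild types 1 and 3. The other 6 arrays lay between -0.11 and -0.02. Like scores stood for unlike genes. Krtdap was 8.83 and 9.06 in knockouts 1 and 4, against 5.80 and 7.17 in wild types 1 and 3. Krt10, Krt1 and Lor were also highest in those knockouts. Krt27 was 5.71 and 5.48 in those knockouts, against 9.35 and 8.34 in those wild types. Krt25 and Krt71 followed Krt27, while Krt5 and Krt14 were high in each of these mice.

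None of the 76 lipid probe sets passed the test between genotypes, limma across all probe sets with Benjamini-Hochberg adjustment at 0.05. Over all 45037 probe sets 0.191% passed, and over the varying ones 0.966%. Of the 76, 47 in 30 genes were varying. Of these, 3 had an unadjusted p under 0.05, all with higher knockout means: Vldlr probe sets 1451156_s_at and 1442169_at, and Plin5 1424937_at. Over all varying probe sets the same was true of 9.92%, with 7.44% higher and 2.48% lower in knockouts, so the count lay near that background. All 3 were among 18 varying lipid probe sets of genes that also have a brighter one. Over the array, 14.6% of the varying probe sets of that class were higher in knockouts at this level. Among the 29 that were the brightest of their gene there were 0, where 6.72% of such probe sets had an unadjusted p under 0.05.

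In direction, 31 of the 47 varying lipid probe sets had a higher mean in knockouts and 16 a lower one, with a median difference of 0.032. All varying probe sets split into 3054 higher and 3155 lower, with a median of -0.002. The lipid split moved with single mice: without knockout 5 it was 21 of 47 higher, and without knockout 4 or without wild type 1 it was 25 of 47. It was 35 of 47 without knockout 3 and 33 of 47 without wild type 2. Without the 3 arrays of highest adipocyte score it was 22 of 47 (this setting was chosen after seeing the data). The probe sets are not independent, as Vldlr alone gave 6 of the 31. With the brightest probe set of each gene, 18 of 29 were higher. Differences ran from -0.23 for Agpat2 to 0.75 for the dimmer Scd1 probe set. In the plot of differences with their intervals, 3 of the 47 intervals leave out 0.

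**Figure D1:**
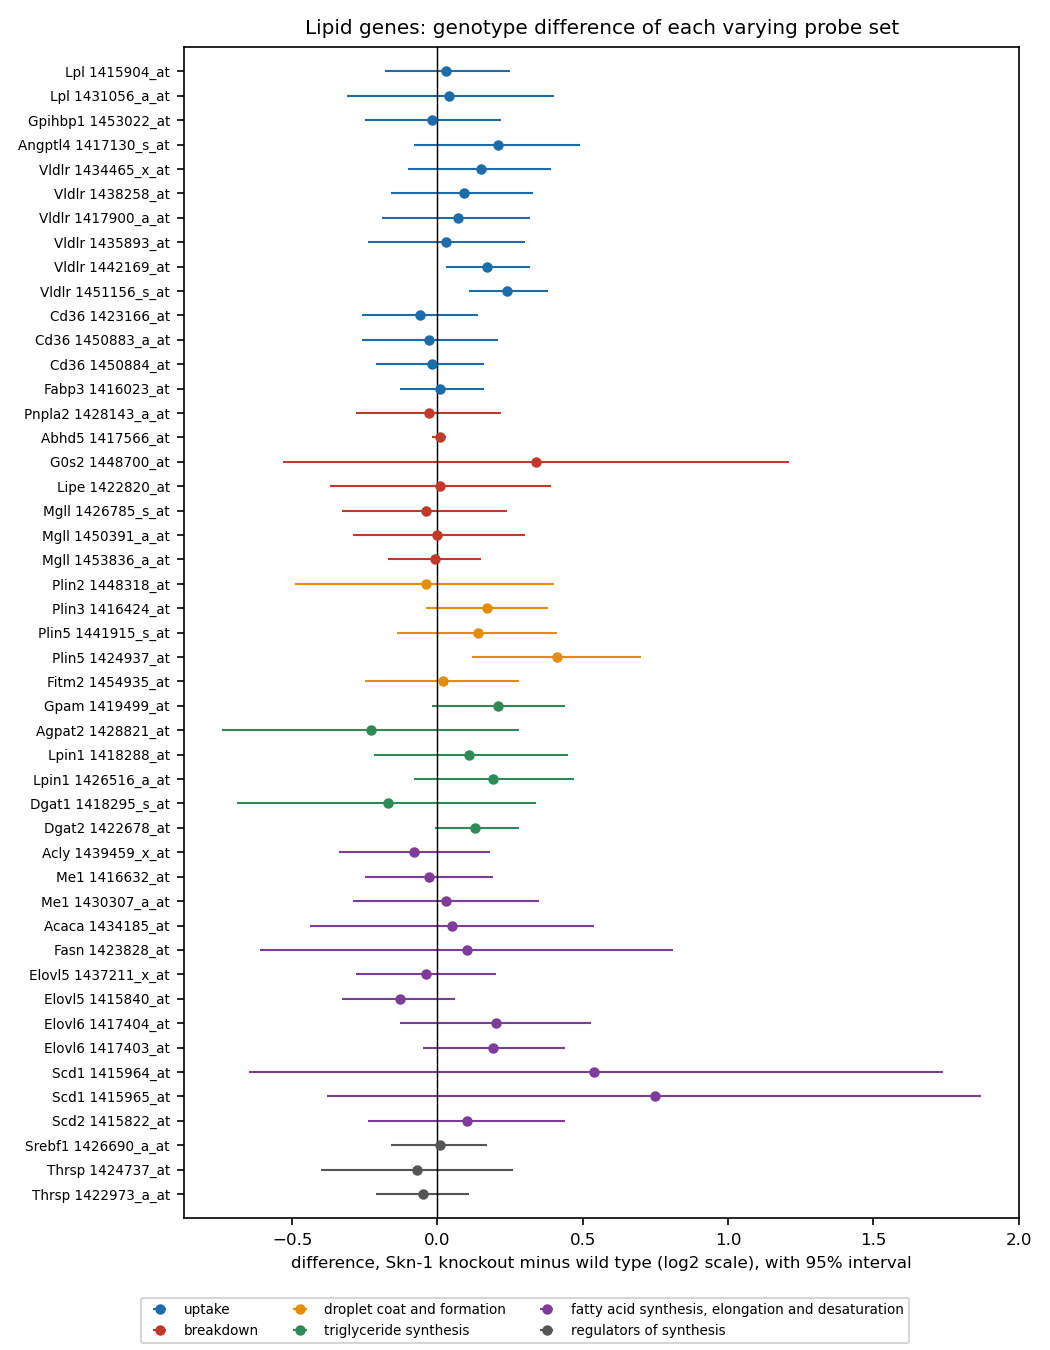
Difference of each of the 47 varying lipid probe sets, knockout minus wild type on the log2 scale (x axis), with bars for the 95% interval from limma and colours for the role. The widest bars belong to Scd1 (-0.65 to 1.74 for 1415964_at) and G0s2 (-0.53 to 1.21), and the 2 Vldlr probe sets and 1 Plin5 probe set at unadjusted p under 0.05 lie to the right of 0.

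Promoter windows of 4 members are shown because these genes carry the results below: Vldlr and Plin5 hold the smallest p-values, and Plin2 and Fasn were among those that moved most with the adipocyte score. Each window runs from 250 bases before to 50 after the annotated start, 5' to 3' on the gene's strand, from RefSeq on GRCm38.p6, and where a gene has several windows the one with the most matches is given. Capitals mark every match on either strand to the nuclear receptor half-site AGGTCA, the E-box CACGTG, the CCAAT box (CCAAT) or the core TCACNCCAC of the sterol regulatory element.
Vldlr (chr19:27216770-27217069, plus strand): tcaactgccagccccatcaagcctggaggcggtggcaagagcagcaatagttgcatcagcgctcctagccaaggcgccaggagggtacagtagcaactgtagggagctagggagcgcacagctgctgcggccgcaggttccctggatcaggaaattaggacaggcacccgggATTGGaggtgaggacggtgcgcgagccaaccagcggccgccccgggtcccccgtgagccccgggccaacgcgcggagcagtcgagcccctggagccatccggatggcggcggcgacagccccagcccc
Plin5 (chr17:56117499-56117798, minus strand): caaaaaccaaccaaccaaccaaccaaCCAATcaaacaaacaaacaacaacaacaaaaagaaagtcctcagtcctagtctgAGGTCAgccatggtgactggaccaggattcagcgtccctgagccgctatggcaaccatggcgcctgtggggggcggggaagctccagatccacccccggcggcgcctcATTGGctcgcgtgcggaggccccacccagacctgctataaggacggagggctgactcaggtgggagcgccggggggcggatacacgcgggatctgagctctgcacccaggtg
Plin2 (chr4:86670010-86670309, minus strand): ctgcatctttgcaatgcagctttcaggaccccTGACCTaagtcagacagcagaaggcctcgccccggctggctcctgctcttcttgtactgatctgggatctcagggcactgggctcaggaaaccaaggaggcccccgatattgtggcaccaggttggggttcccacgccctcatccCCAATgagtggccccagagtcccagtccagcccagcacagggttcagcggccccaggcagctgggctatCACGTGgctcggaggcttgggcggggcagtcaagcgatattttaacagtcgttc
Fasn (chr11:120824498-120824797, minus strand): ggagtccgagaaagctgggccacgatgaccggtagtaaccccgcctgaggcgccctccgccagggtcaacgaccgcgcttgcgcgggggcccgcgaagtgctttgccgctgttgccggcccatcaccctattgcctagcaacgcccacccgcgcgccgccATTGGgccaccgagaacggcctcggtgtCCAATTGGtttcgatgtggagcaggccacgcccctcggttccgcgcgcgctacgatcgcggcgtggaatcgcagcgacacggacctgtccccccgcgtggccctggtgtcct
The Vldlr window held 1 CCAAT box, read on the opposite strand, and no other match. Plin5 held 1 half-site and 2 CCAAT boxes, and Plin2 held 1 half-site, 1 E-box and 1 CCAAT box. Fasn held 3 CCAAT boxes, the last pair overlapping on opposite strands.

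Of the 36 listed genes, 27 had promoter windows, 39 in all. The half-site stood in 23.1% of these windows, against 16.3% of all 32851 windows. CACGTG stood in 15.4% of the lipid windows against 7.15% of all, CCAAT in 43.6% against 37.4%, and TCACNCCAC in 5.13% against 1.24%, which is 2 windows, of Acsl1 and Mlxipl. The directly repeated half-site AGGTCANAGGTCA stood in 0 of the 39 and in 0.0396% of all windows. These matches describe letters, and no binding was measured.

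Uptake had 14 varying probe sets in 6 genes, 10 of them higher and 4 lower in knockouts, with a median difference of 0.039. The lead gene was Vldlr, the very low density lipoprotein receptor, which binds triglyceride-rich lipoproteins. Its probe set 1451156_s_at read 8.24, 8.05, 8.15, 8.19 and 8.04 in knockouts 1 to 5, against 7.84, 8.03, 7.80, 7.98 and 7.80 in wild types 1 to 5. Every knockout lay above every wild type, by 0.01 at the narrowest. It was the only lipid probe set of 76 without overlap between the genotypes, where 1.60% of all probe sets and 3.96% of varying ones had none. The difference was 0.24 (95% interval 0.11 to 0.38, a fold of 1.18), with a limma adjusted p = 0.298. A second probe set, 1442169_at, averaged 9.28 ± 0.0875 in knockouts and 9.10 ± 0.118 in wild types (SD, n = 5 each), with overlapping groups. Its difference was 0.17 (limma adjusted p = 0.638).

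The other 4 Vldlr probe sets were brighter and differed less. The brightest, 1434465_x_at, averaged 11.55 ± 0.19 in knockouts and 11.40 ± 0.156 in wild types, a difference of 0.15 with an interval of -0.10 to 0.39. All 6 Vldlr differences were above 0, from 0.03 to 0.24, but the probe sets did not follow each other closely over the arrays, with pairwise correlations from 0.18 to 0.98. Without the 3 arrays of highest adipocyte score, 2 of the 6 differences were below 0, at -0.01 for 1438258_at and -0.07 for 1435893_at, that of the brightest was 0.03 and that of 1451156_s_at 0.23. Without the 5 arrays of high lymphocyte, keratinocyte or adipocyte score the difference of 1451156_s_at was 0.16 (limma adjusted p = 0.890) and that of the brightest 0.03.

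Lpl, lipoprotein lipase, read 12.53, 12.55, 12.43, 12.69 and 12.76 in knockouts on its brighter probe set, against 12.27, 12.68, 12.69, 12.57 and 12.59 in wild types. The groups overlapped almost wholly, and wild type 1 was the low one. The difference was 0.03, with an interval of -0.18 to 0.25, and the dimmer Lpl probe set followed it over the arrays (r = 0.98, n = 10 arrays; both come from the same RNA). Gpihbp1, the capillary protein that anchors lipoprotein lipase, averaged 10.19 ± 0.187 in knockouts and 10.21 ± 0.143 in wild types. Angptl4, a fasting-induced inhibitor of lipoprotein lipase, averaged 9.20 ± 0.223 in knockouts and 8.99 ± 0.181 in wild types, a difference of 0.21 (interval -0.08 to 0.49, limma adjusted p = 0.890), and of 0.08 without the 5 arrays.

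Cd36, the fatty acid translocase, read 11.59, 11.49, 11.27, 11.38 and 11.49 in knockouts and 11.34, 11.76, 11.47, 11.47 and 11.48 in wild types on its brightest probe set. Its 3 probe sets differed by -0.06 to -0.02, each with an interval across 0, and that of the brightest was -0.26 to 0.14. Fabp3, the muscle fatty acid-binding protein, had the narrowest interval among the brightest varying probe sets of the uptake genes. It read 12.42, 12.41, 12.21, 12.38 and 12.47 in knockouts and 12.49, 12.39, 12.26, 12.43 and 12.27 in wild types. The difference was 0.01 with an interval of -0.13 to 0.16, which in folds is 0.914 to 1.11. For Lpl, Cd36 and Fabp3 the intervals thus bound the change of the brightest probe set to folds between 0.837 and 1.19. Slc27a1, a fatty acid transport protein, had only low-variation probe sets, at 7.63 and 7.60 in both genotypes.

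**Figure D2:**
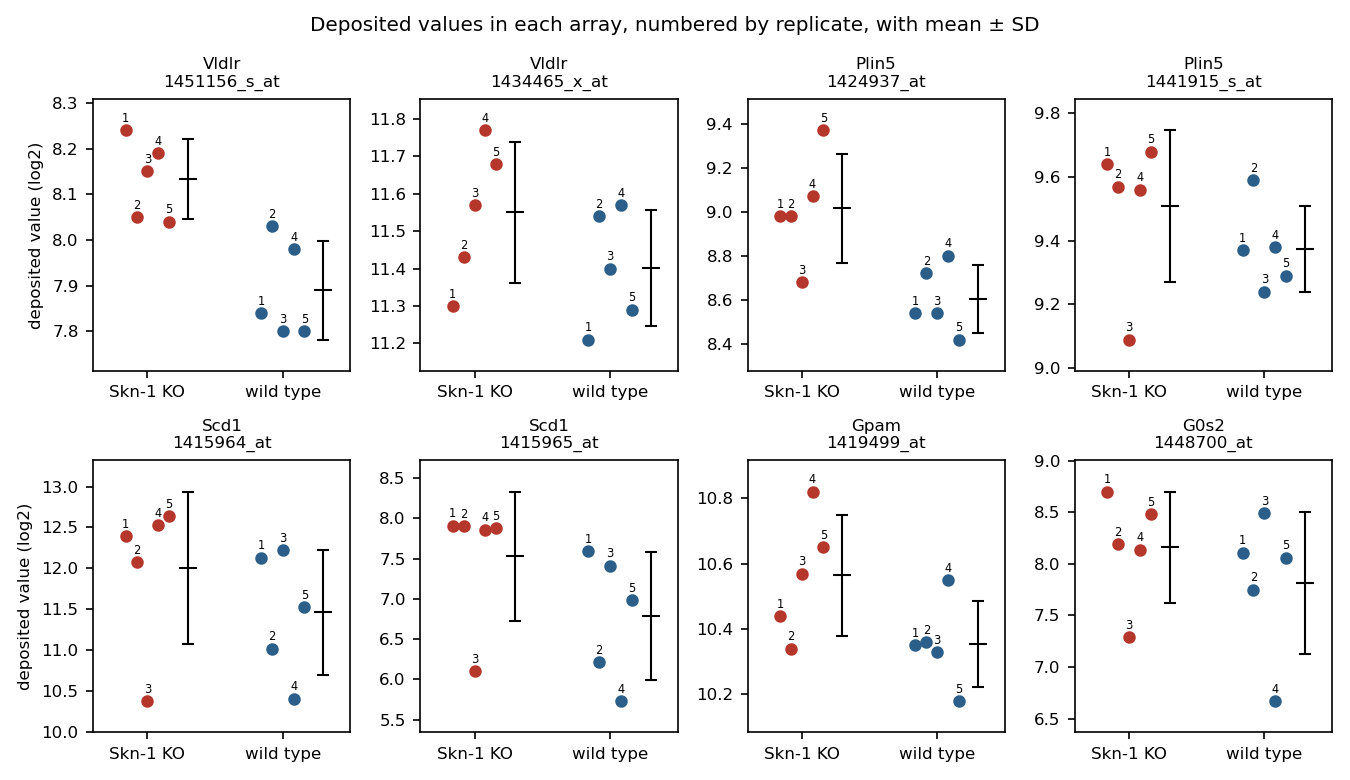
Values of selected lipid probe sets in each mouse (y axis, deposited value on the log2 scale, one panel per probe set with its own axis), knockouts left and wild types right, with bars for each group's mean ± SD. The groups separate for Vldlr 1451156_s_at alone, and knockout 3 and wild type 4 are the lowest mice of their genotype in both Scd1 panels.

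Breakdown had 7 varying probe sets in 5 genes, 4 higher and 3 lower in knockouts, with a median difference of 0.004. Pnpla2, adipose triglyceride lipase, averaged 9.91 ± 0.0771 in knockouts and 9.94 ± 0.24 in wild types, a difference of -0.03 (interval -0.28 to 0.22). G0s2, which inhibits that lipase, varied most: it read 8.70, 8.19, 7.29, 8.14 and 8.48 in knockouts and 8.11, 7.75, 8.49, 6.67 and 8.06 in wild types. Knockout 3 and wild type 4 were the low mice, and the highest array was 4.08 times the lowest. The difference was 0.34 with an interval of -0.53 to 1.21; it was 0.56 without knockout 3 and 0.06 without wild type 4.

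Lipe, hormone-sensitive lipase, read 7.10, 7.28, 7.08, 7.65 and 7.50 in knockouts and 7.08, 7.39, 7.66, 6.97 and 7.45 in wild types. The high mice were knockouts 4 and 5 and wild type 3, and the difference was 0.01 (interval -0.37 to 0.39). Mgll, monoglyceride lipase, had 3 varying probe sets that differed by -0.04 to 0.00. Abhd5, the activator of adipose triglyceride lipase, had the smallest SD of all varying lipid probe sets, 0.0145 for 1417566_at. The nearest probe set on the other side of the 0.01 limit was Acly 1446315_at with 0.000547. Abhd5 1417566_at ran only from 7.30 to 7.35 over the arrays. The brightest Abhd5 probe set, 1417565_at, was low-variation, at 7.87 in both genotypes.

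The droplet genes gave 5 varying probe sets in 4 genes, 4 higher and 1 lower, with a median difference of 0.136. Plin5, the perilipin of oxidative tissues that links droplets to mitochondria, read 8.98, 8.98, 8.68, 9.07 and 9.37 in knockouts on probe set 1424937_at, against 8.54, 8.72, 8.54, 8.80 and 8.42 in wild types. The groups overlapped by knockout 3, which lay below 2 wild types. The difference was 0.41 (interval 0.12 to 0.70, a fold of 1.33), with a limma adjusted p = 0.489. The brighter Plin5 probe set, 1441915_s_at, read 9.64, 9.57, 9.09, 9.56 and 9.68 in knockouts and 9.37, 9.59, 9.24, 9.38 and 9.29 in wild types. Its difference was 0.14 with an interval of -0.14 to 0.41, and 0.24 without knockout 3, its low array (limma adjusted p = 0.470). Without the 3 arrays of highest adipocyte score the 2 differences were 0.26 for 1424937_at and 0.03 for 1441915_s_at, and without the 5 arrays of high lymphocyte, keratinocyte or adipocyte score they were 0.18 for 1424937_at and -0.09 for 1441915_s_at.

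Plin3, a broadly expressed perilipin, averaged 8.35 ± 0.11 in knockouts and 8.17 ± 0.182 in wild types, a difference of 0.17 (limma adjusted p = 0.856), and of 0.08 without the 3 arrays and 0.06 without the 5. Plin2, the general droplet coat protein, read 8.57, 8.51, 8.58, 8.84 and 9.01 in knockouts and 8.37, 8.84, 9.20, 8.31 and 9.01 in wild types. Both extremes were wild types, and the difference was -0.04 (interval -0.49 to 0.40). Fitm2, which helps droplets to bud from the endoplasmic reticulum, averaged 9.48 ± 0.227 in knockouts and 9.46 ± 0.138 in wild types.

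Triglyceride synthesis gave 6 varying probe sets in 5 genes, 4 higher and 2 lower, with a median difference of 0.121. Gpam, the mitochondrial acyltransferase of the first step, read 10.44, 10.34, 10.57, 10.82 and 10.65 in knockouts and 10.35, 10.36, 10.33, 10.55 and 10.18 in wild types. The 2 highest mice were knockouts 4 and 5, and the groups overlapped. The difference was 0.21 (interval -0.02 to 0.44, limma adjusted p = 0.801). Dgat2, which adds the last acyl chain, averaged 8.73 ± 0.123 in knockouts and 8.60 ± 0.0765 in wild types, a difference of 0.13 (limma adjusted p = 0.804); it was 0.18 without knockout 3, 0.07 without the 3 arrays of highest adipocyte score and 0.01 without the 5 arrays of high lymphocyte, keratinocyte or adipocyte score. The Gpam difference was 0.09 in both of these reduced sets. Lpin1, a phosphatidate phosphatase, differed by 0.11 and 0.19 on its 2 probe sets, with intervals across 0. Those differences were -0.01 and 0.10 without wild type 1, which was low at 11.17 and 11.03.

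The 2 other synthesis enzymes had lower knockout means. Agpat2, the acyltransferase of the second step, read 6.80, 7.01, 7.05, 7.23 and 7.58 in knockouts and 7.17, 7.36, 7.92, 6.80 and 7.57 in wild types. Wild type 3 was the highest mouse, and the groups overlapped from 6.80 to 7.58. The difference was -0.23 (interval -0.74 to 0.28, limma adjusted p = 0.958), and -0.09 without wild type 3. Dgat1, the other diacylglycerol acyltransferase, averaged 7.19 ± 0.271 in knockouts and 7.36 ± 0.44 in wild types, a difference of -0.17 with wild type 3 again highest at 7.92, and of -0.03 without that mouse.

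Fatty acid synthesis, elongation and desaturation gave 12 varying probe sets in 8 genes, 8 higher and 4 lower, with a median difference of 0.072. Scd1, stearoyl-CoA desaturase, had the widest spread of all lipid genes. Its brighter probe set read 12.39, 12.08, 10.38, 12.53 and 12.64 in knockouts and 12.13, 11.02, 12.22, 10.41 and 11.53 in wild types, and the highest array was 4.77 times the lowest. Knockout 3 and wild type 4 were the lowest 2 mice, followed by wild type 2. The difference was 0.54 with an interval of -0.65 to 1.74, so folds from 0.635 to 3.34 lay within it (limma adjusted p = 0.958). The dimmer probe set followed it over the arrays (r = 0.97, n = 10 arrays) and read 6.10 in knockout 3 and 5.73 in wild type 4. Its difference was 0.75, with an interval of -0.38 to 1.87. Without knockout 3 the differences were 0.95 and 1.11 (limma adjusted p = 0.659 and 0.580), and without wild type 4 they were 0.28 and 0.48.

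Acly, the citrate-cleaving enzyme, averaged 7.91 ± 0.156 in knockouts and 7.99 ± 0.212 in wild types on its 1 varying probe set. Acaca, acetyl-CoA carboxylase alpha, read 7.30, 7.16, 6.93, 7.64 and 7.74 in knockouts and 7.24, 7.37, 7.79, 6.79 and 7.35 in wild types. Fasn, fatty acid synthase, read 7.13, 7.21, 7.01, 8.23 and 7.96 in knockouts and 7.59, 6.96, 8.0, 6.94 and 7.57 in wild types. In both genes the 3 highest mice were knockouts 4 and 5 and wild type 3. The differences were 0.05 for Acaca (interval -0.44 to 0.54) and 0.10 for Fasn (interval -0.61 to 0.81). Me1, malic enzyme, a source of NADPH for synthesis, differed by -0.03 and 0.03 on its 2 probe sets, which followed each other loosely (r = 0.39, n = 10 arrays). Scd2, a second desaturase, averaged 8.50 ± 0.277 in knockouts and 8.40 ± 0.202 in wild types.

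Elovl6, the elongase of palmitate, read 6.83, 6.49, 6.35, 7.02 and 6.43 in knockouts and 6.52, 6.29, 6.63, 6.23 and 6.47 in wild types on its brighter probe set. Its 4 highest mice, knockouts 4 and 1 and wild types 3 and 1, were the 4 with high scores of the 9 keratinocyte and hair genes, all measured and varying. On the dimmer probe set knockouts 4 and 1 and wild type 3 were again the highest, at 6.54, 6.35 and 6.2, but wild type 1 was among the low mice at 5.98. The difference of the brighter one was 0.20 (interval -0.13 to 0.53) and was 0.09 without the 5 arrays of high lymphocyte, keratinocyte or adipocyte score; the part of those cells in it was not tested further. Elovl5, an elongase of polyunsaturated fatty acids, had lower knockout means on both probe sets, by -0.04 and -0.13, the second with an interval of -0.33 to 0.06.

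Among the regulators, Srebf1, which encodes the sterol regulatory element-binding protein that drives lipogenic genes, averaged 8.35 ± 0.0842 in knockouts and 8.34 ± 0.142 in wild types. Its difference was 0.01 with an interval of -0.16 to 0.17. Thrsp, known as Spot 14 and tied to lipogenesis, ranged from 8.11 to 8.95 in knockouts and from 8.47 to 8.63 in wild types on its brighter probe set. Knockout 1 was its lowest and knockout 2 its highest mouse, and the difference was -0.07 (interval -0.40 to 0.26).

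The other 29 lipid probe sets were low-variation. Slc27a1, Elovl3, Fads1, Fads2 and Mlxipl had no other kind, so for these genes no difference can be read: Fads1 stood at 7.07, Fads2 at 6.28, Elovl3 at 5.88 and Mlxipl at 7.89 on the brightest probe set in both genotypes. Fads1 and Fads2 are the delta-5 and delta-6 desaturases, and Mlxipl encodes the carbohydrate response factor ChREBP. In the low-variation class 1 probe set, of Fabp3, had an unadjusted p under 0.05, as had 6.09% of all low-variation probe sets; its limma adjusted p was 0.683, with both means at 6.94.

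Variation among mice within each genotype exceeded the genotype differences for several lipid genes, and some of it ran with the adipocyte score. Over the 10 arrays, 8 of the 47 varying probe sets, 1 each in 8 genes, had a Pearson correlation with that score past a Benjamini-Hochberg adjusted permutation p of 0.05, all positive. Such correlations were not computed over all varying probe sets, so the 8 cannot be called particular to lipid genes. The strongest was Acaca (r = 0.97, permutation p = 2e-05, adjusted 0.00094; rho = 0.98, p = 2e-05, adjusted 0.00094). Without wild types 3 and 4, the 2 arrays farthest from the median score, its r was 0.93. Lipe followed (r = 0.95, permutation p = 5e-05, adjusted 0.0012; rho = 0.96, p = 6e-05), with r = 0.91 without those arrays. Plin2 had r = 0.93 (permutation p = 0.00022, adjusted 0.0034; rho = 0.89, p = 0.0011) and 0.86 without them. Abhd5, Dgat1, Agpat2, Fasn and Acly had r from 0.81 to 0.85, with adjusted permutation p from 0.023 to 0.029. Without those arrays r was from 0.66 to 0.83. The Abhd5 probe set spanned only 0.04 over the 10 arrays. By Spearman's rho, Abhd5, Fasn and Acly did not pass (adjusted permutation p = 0.083, 0.073 and 0.056). The arrays of highest adipocyte score also had high scores of other lists. Lymphocyte scores were 1.45 in wild type 3 and 1.42 in knockout 5. Keratinocyte and hair scores were 1.34 in wild type 3 and 1.49 in knockout 4. They were also high in knockout 1 and wild type 1, whose adipocyte scores were -0.07 and -0.35. What part of these relations belongs to fat cells was not tested.

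**Figure D3:**
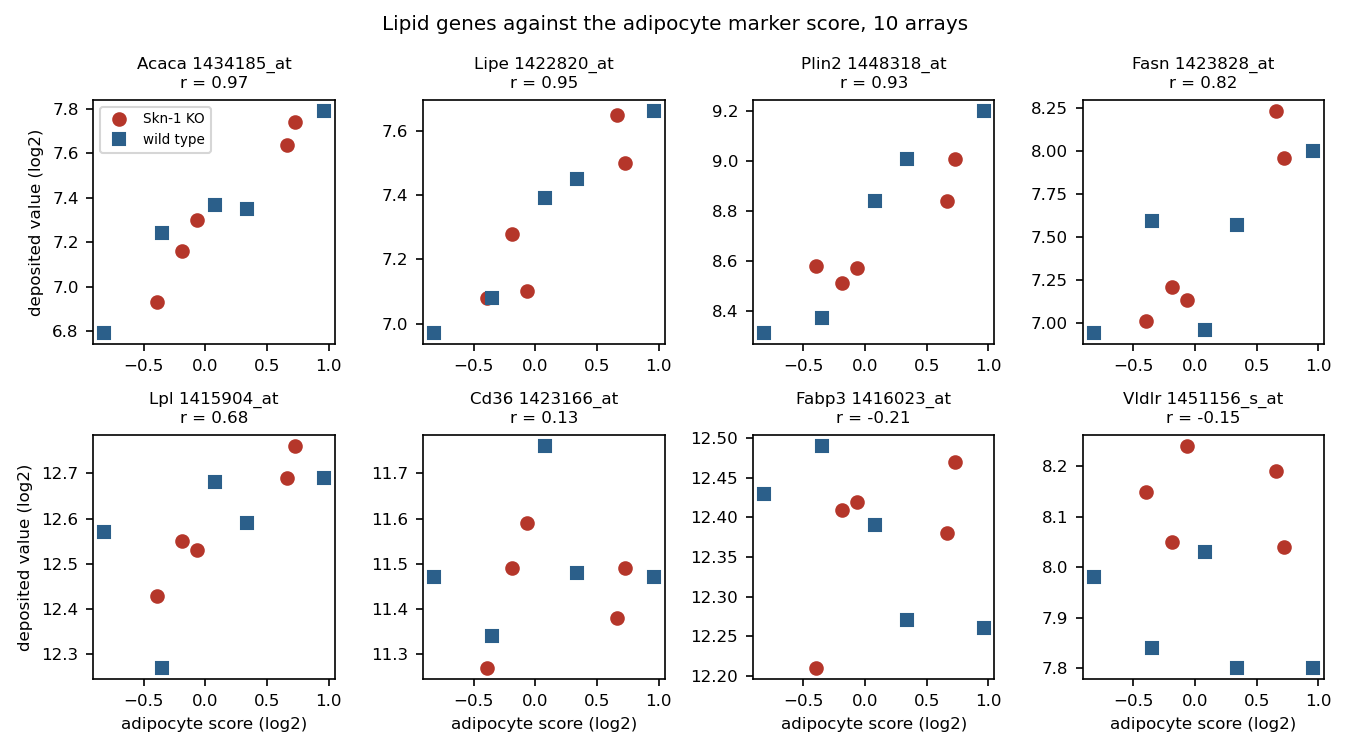
Deposited value of selected lipid probe sets (y axis, log2 scale) against the adipocyte marker score of the same array (x axis, log2 scale), one point per mouse, knockouts and wild types in separate colours. Acaca, Lipe and Plin2 climb along the score in both genotypes, with r of 0.97, 0.95 and 0.93, while Cd36 and Vldlr 1451156_s_at do not, with r of 0.13 and -0.15.

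Several uptake and droplet genes had weaker correlations with the score, none past the adjusted threshold by Pearson's r. Fabp3 had r = -0.21 (permutation p = 0.55; rho = -0.24, p = 0.51), Cd36 r = 0.13 on its brightest probe set (permutation p = 0.73; rho = 0.26, p = 0.47) and Vldlr 1451156_s_at r = -0.15 (permutation p = 0.67; rho = -0.15, p = 0.68). Without the 2 farthest arrays these were 0.17 for Fabp3, 0.20 for Cd36 and 0.06 for Vldlr. Plin5 had r = 0.20 on both probe sets (permutation p = 0.58 and 0.59; rho = 0.08 and 0.20, p = 0.84 and 0.59). Lpl lay between, with r = 0.68 (permutation p = 0.027, adjusted 0.11; rho = 0.83, p = 0.0045, adjusted 0.037) and 0.84 without the 2 arrays. Scd1 had r = 0.67 on the brighter probe set (permutation p = 0.038, adjusted 0.14; rho = 0.70, p = 0.031, adjusted 0.091) and 0.52 without them.

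With the adipocyte score as a covariate, 0 of the 76 passed limma's adjusted test, and 4 varying ones had an unadjusted p under 0.05. Over all 45037 probe sets, 2986 had an unadjusted limma p under 0.05 with this covariate. The share among all varying ones was not counted, so the 4 is not read as a result about lipid genes. The difference of Agpat2 was then -0.29 (limma adjusted p = 0.570) and that of Dgat1 -0.23 (limma adjusted p = 0.773). Vldlr 1451156_s_at stood at 0.25 (limma adjusted p = 0.314) and Plin5 1424937_at at 0.41 (limma adjusted p = 0.570), close to their differences without the covariate. The heat map by array shows knockouts 4 and 5 and wild type 3 as the mice with high Acaca, Fasn and Lipe; for Plin2, wild type 5 was as high as knockout 5 and above knockout 4.

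**Figure D4:**
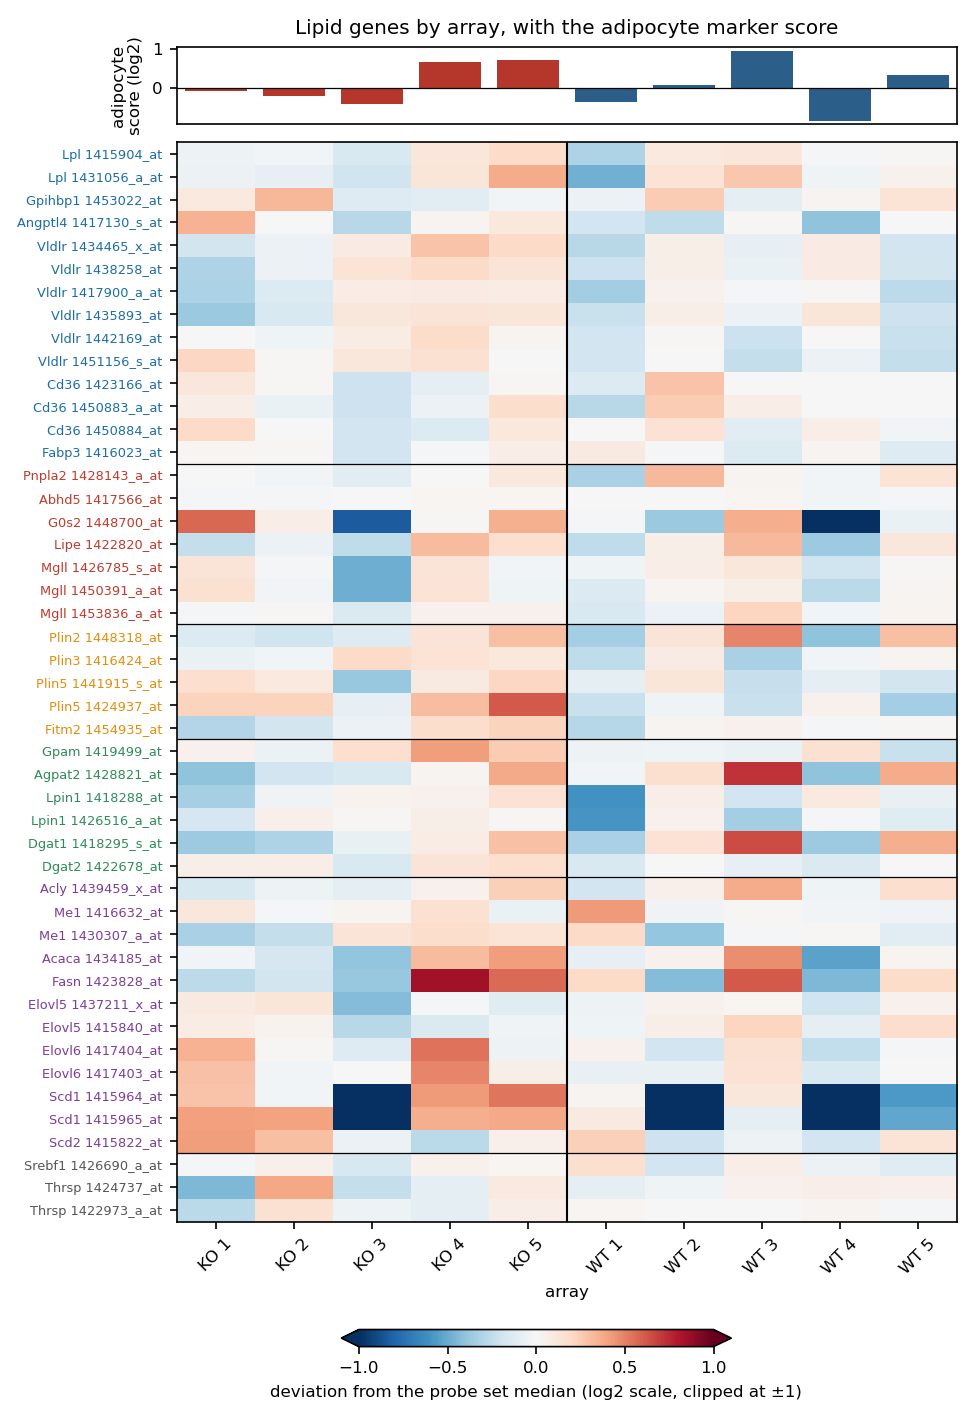
Deviation of each of the 47 varying lipid probe sets (rows, coloured by role) from its median over the 10 arrays (log2 scale, colours clipped at 1 in both directions), knockouts left and wild types right, with the adipocyte score of each array as bars above. Scd1 is darkest in knockout 3 and wild types 2 and 4, G0s2 in knockout 3 and wild type 4, and the red cells of Acaca, Fasn, Agpat2 and Dgat1 stand under the high bar of wild type 3.

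A further 57 genes of the same pathways, listed but not members, gave 112 probe sets, of which 43 were varying. None passed, and 0 of the 43 had an unadjusted limma p under 0.05, where 9.92% of all varying probe sets did; 19 were higher and 24 lower in knockouts, with a median difference of -0.008. In each role the varying probe set with the smallest p is named. Acsl3, an acyl-CoA synthetase, differed by -0.06, Acot1, an acyl-CoA thioesterase, by -0.14, and Fitm1, the muscle relative of Fitm2, by -0.07. Lpin2, a relative of Lpin1, differed by -0.30, Acacb, the mitochondrial acetyl-CoA carboxylase, by 0.15, and Mid1ip1, a partner of Thrsp, by 0.22. Their limma adjusted p-values ran from 0.840 to 0.977. Elovl5, Me1 and Abhd5 lie on chromosome 9, as Pou2f3 does, and are 773, 898 and 1684 annotated genes away from it; the differences of their varying probe sets ran from -0.13 to 0.03.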

How the data were processed

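Trizol and RNeasy columns gave RNA from 10 gastrocnemius samples, and 100 ng was labelled with a 3' IVT kit, per the labels' protocols. The authors deposited 1 table of normalized values; how they were summarized and with which software is not given in the sources used here. These deposited values are read as log2 from their range of 4.93 to 13.96, as the base is not stated, so folds rest on that reading. Array medians ran from 6.23 to 6.24. The number of arrays limits precision.

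After 64 array controls were left out, all 45037 probe sets were tested with limma's lmFit and eBayes, without trend (version 3.58.1, R 4.3.3), and Benjamini-Hochberg adjustment at 0.05. Gene names came from the platform annotation, updated through RefSeq, and 34945 probe sets had 1 gene. A varying probe set had an SD over 10 arrays above 0.01; a difference of a low-variation one is not printed, having no readable size. The members, lists and rules for naming genes were chosen with earlier results of these data known. The members with the smallest p, the widest spread, or a role's main step are described, with the brightest probe set of a gene first.

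Marker scores used the most variable probe set of each gene and exact two-sided permutation tests; correlations used 100000 permutations, adjusted over 47 relations. Simulated data for the comparison of knockouts and wild types had 45037 probe sets. There limma recovered 37.2% of probe sets changed by 0.5 and 77.3% of those changed by 1 (log2), with 4.9% false calls. Noise was drawn independently for each probe set, and changes were placed only in varying ones. Noise shared between probe sets and single outlying arrays were not simulated, so these shares need not hold for the lipid genes. Alternatives covered normalization, filters, moderation, weights per array, a block on the replicate number, leaving out 1 array at a time, 2 covariates, and the probe set taken per gene; leaving out arrays of high adipocyte score was chosen after seeing the data. Figures were drawn with Python 3.11.15 and matplotlib 3.10.9.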

Additional observations from a re-analysis of the deposited data

Results flagged for a closer look

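Single arrays stood apart from the other 4 of their genotype by Dixon's test in 8 of the 94 groups of lipid values tested, where chance gives about 1 in 20. The groups are not independent, as both Scd1 probe sets were flagged in the same mouse. The share over all varying probe sets was not computed, so the 8 is not read as particular to lipid genes. In knockout 3, Scd1 read 10.38 on its brighter probe set, against 12.08 to 12.64 in the other knockouts, and 6.10 on the dimmer one, against 7.86 to 7.91. The same mouse read 8.71 for Mgll 1426785_s_at, against 9.17 to 9.33, and 9.09 for Plin5 1441915_s_at, against 9.56 to 9.68. Wild type 1 read 12.27 for Lpl 1415904_at, against 12.57 to 12.69 in the other wild types, and 9.22 for Fitm2, against 9.49 to 9.55. It was the high array for Me1 1416632_at, at 10.22 against 9.76 to 9.81. Knockout 1 read 11.45 for Lpin1 1426516_a_at, against 11.63 to 11.68 in the other knockouts. Among 22 groups of marker scores 2 stood out: the lymphocyte score was 1.42 in knockout 5 and 1.45 in wild type 3, with all other arrays between -0.04 and 0.05.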

How the results depend on the processing

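None of the 76 lipid probe sets passed in any of the 25 alternatives, in which the lowest adjusted limma p was 0.12 (Vldlr 1451156_s_at, with only varying probe sets tested). Of 1122 differences computed under them, 108 had the opposite sign to the reported one, none of them called, and 20 of the 47 varying probe sets kept their sign throughout. With 1 mouse left out, the share of varying lipid probe sets that were higher in knockouts ran from 44.7% to 74.5%, the count without overlap from 1 to 4 (4 without knockout 3 or without wild type 1, 2 without wild type 4), and the count at unadjusted p under 0.05 from 2 to 8 (8 without knockout 3). That share was 83.0% with a slow fibre score as covariate. Leaving out the 5 arrays of high lymphocyte, keratinocyte or adipocyte score keeps 2 knockouts and 3 wild types. In that set 11 lipid probe sets did not overlap and 0 had an unadjusted limma p under 0.05. Groups this small separate easily without any difference, so the 11 is not read as a gain. Overlap over all probe sets was not counted in the sets with arrays left out. Of all 45037 probe sets, 2672 had an unadjusted limma p under 0.05 without the 5 arrays, and 3306 without knockout 3. Those counts include low-variation probe sets, and none was made over varying ones alone with arrays left out. The 8 without knockout 3 therefore has no like share beside it and is not read as a gain. The muscle identity score was higher in knockouts by 0.07 (exact permutation p = 0.0317, adjusted 0.381), and by 0.06 to 0.09 with 1 mouse left out, where 6 of 10 such exact permutation p-values were above 0.05. With the replicate number as a block 0 lipid probe sets passed, and 31 of 47 varying ones were higher in knockouts. Their smallest limma adjusted value was 0.522. The count over all probe sets was 5, against 86 without the block. Deviations of same-numbered mice correlated from -0.40 to 0.32, and 4 of 10 arrays correlated best with their own number. Knockout 5 and wild type 3, both of high lymphocyte score, correlated at 0.69. These correlations cannot decide whether the numbers pair the mice, because differently numbered mice can share deviations as well. Pairing by batch or litter was not tested. Over all probe sets the calls numbered 43 with quantile normalization, 143 with only varying probe sets tested, 31 to 57 with 1 mouse left out, 44 with the slow fibre covariate, 1 without the 3 arrays of highest adipocyte score, 0 without the 5 arrays, and 5, 61 or 29 with the brightest, the most variable or the mean probe set of each gene. The 5 mice of each genotype left intervals with a median half-width of 0.26 for the varying lipid probe sets.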

Other observations

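Among pathway genes outside the member list, Elovl4, an elongase known for the very long chain fatty acids of skin and retina, read 6.82, 5.57, 5.44, 7.81 and 5.37 in knockouts 1 to 5 and 5.76, 5.37, 6.44, 5.46 and 5.51 in wild types 1 to 5. The 4 highest mice, knockouts 4 and 1 and wild types 3 and 1, were those with high keratinocyte and hair scores, as for the brighter Elovl6 probe set. That score pools genes that did not run together. Wild type 1, at 5.76, lay close to knockout 2 at 5.57 and had low Krtdap (5.80) beside high Krt27 (9.35). No shared cell type is read from the match. Its difference was 0.50 (limma adjusted p = 0.962). Ces1d, a carboxylesterase with triglyceride hydrolase activity in mouse fat, read 7.72, 7.69, 7.93, 8.59 and 8.72 in knockouts and 7.57, 7.75, 8.98, 7.50 and 7.93 in wild types on probe set 1449081_at, a difference of 0.18 (limma adjusted p = 0.988). Cebpa, a transcription factor of fat cell differentiation, read 6.64, 6.93, 6.70, 7.30 and 7.20 in knockouts and 6.72, 7.01, 7.64, 6.41 and 7.16 in wild types. In both genes knockouts 4 and 5 and wild type 3 were the 3 highest mice, the same that had the highest adipocyte scores. The choice of these genes followed their values, and the part of other cell types in them was not tested.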
